A study of Homo sapiens with 6 samples.

Results

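Splicing factors were examined as a group: the SR proteins, the hnRNPs, the SF3 subunits, the SRRM proteins, and U2AF and SF1. A gene of the deposited array table was a member if its symbol began with SFRS, SRSF, HNRNP or SRRM, was SF3A or SF3B followed by a number, or was U2AF1, U2AF2 or SF1. This gave 51 of the 37879 rows: 21 SR family rows, 14 HNRNP rows, 9 SF3 rows, 4 SRRM rows and the 3 rows of U2AF and SF1. The symbols of the table are old, and all 51 were matched to present names through a RefSeq table. SFRS1, for example, is now SRSF1.

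SR proteins carry RNA recognition motifs and a domain rich in arginine and serine (RS domain). They bind exonic enhancers and recruit the splicing machinery, whereas many hnRNPs bind silencers and counter them. At the 3′ end of the intron, SF1 binds the branch site, and the large and small U2AF subunits (U2AF2 and U2AF1) bind the polypyrimidine tract and the terminal AG. SF1 is then replaced by the U2 snRNP, a particle of RNA and protein that includes the SF3A and SF3B complexes. SRRM1 and SRRM2 are large RS-rich proteins of the spliceosome, and SRRM2 is also a core protein of nuclear speckles, where splicing factors are stored. Speckles disperse when a cell enters mitosis, the stage at which the cultures measured here were arrested per the labels.

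The samples were HEK293T cells, an embryonic kidney line that carries the SV40 large T antigen, transfected with an empty vector (control, n = 3) or with a plasmid coding for Stau155-FLAG (Stau1, n = 3). Stau155-FLAG is a FLAG-tagged isoform of Staufen1, a protein that binds double-stranded RNA. In the study's plasmid it is driven by a viral promoter, and expression was transient, so each culture also held cells without the plasmid. Both groups were kept in nocodazole, a drug that stops spindle assembly, at 50 ng/ml for 15 h per the labels, to hold the cells in prometaphase. The comparison asks which transcripts of total RNA differed in level between the groups on Illumina HumanWG-6 v3 BeadChips. RNA of many cells was measured together, so fewer cells with a transcript and less of it per cell cannot be told apart. Nothing in the labels says that replicates were separate cultures, so p-values measure the spread between these samples, which may be technical.

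All values below are log2 intensities after background correction and quantile normalization. A level of one row cannot be set against that of another, because probes differ in brightness. Rows were kept if their detection p-value was under 0.05 on at least 3 of the 6 arrays, which left 13285 rows and 47 of the 51 members. Median raw intensity of the members ran from 1160 to 1801 across the arrays, and it was highest on control replicate 3. Quantile normalization removes such differences between arrays. The HEK293T transcripts VIM, NEFM, INA and NEFL were detected on all 6 arrays, and PAX2 on 1. The mitotic transcripts CCNB1, CCNB2, AURKA, PLK1, CDC20, TOP2A and BUB1 were also detected on all 6. Of markers of other tissues, PTPRC, CD3E, HBB, ALB and DES were detected on none, and MYH7 on 1. The STAU1 row, whose probes cannot be told to read the plasmid, had a mean of 11.32 ± 0.10 (SD, n = 3) over the control arrays. Its mean over the Stau1 arrays was 11.47 ± 0.06 (SD, n = 3), a difference of 0.15 with a limma adjusted p of 0.999.

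No splicing factor passed the test. Of the 47 kept members, 0 had a limma adjusted p under 0.05, as was true of all kept rows (0%). Only SRRM2 had an unadjusted p under 0.05, and it was higher in Stau1. Among all kept rows, 2.41% were higher at that p and 1.32% were lower. The changes of the 47 members lay between -0.26 for HNRNPA3 and 0.45 for SRRM2. Their median was 0.07 against 0.00 over all kept rows, and 30 of them (63.8%) were positive against 49.4% of all kept rows. With median scaling, which moved the median of all rows to 0.07, 41 of the 47 were positive and 9226 of the 13285. The median over members was 0.03 to 0.09 when single arrays were left out, lowest without Stau1 replicate 2, and 0.04 when the background was inferred from the whole table. The 3 Stau1 arrays lay above the 3 control arrays for 5 members, SRRM2, SF3A1, SF3B2, SF3B3 and SF1, and for 4.51% of all kept rows. They lay below the control arrays for 0 members and for 3.4% of all kept rows.

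Under the reported processing, the intervals also bound the size of the changes in intensity between these samples, whose spread may be technical. The 95% interval of the limma change lay within 2-fold in either direction for all 47 kept members, and it did so for 99.6% of all kept rows. It lay within 1.5-fold for 43 of the 47, against 86.7% of all kept rows. The exceptions were SRRM2, SF1, SFRS8 and HNRNPA3.

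**Figure D1:**
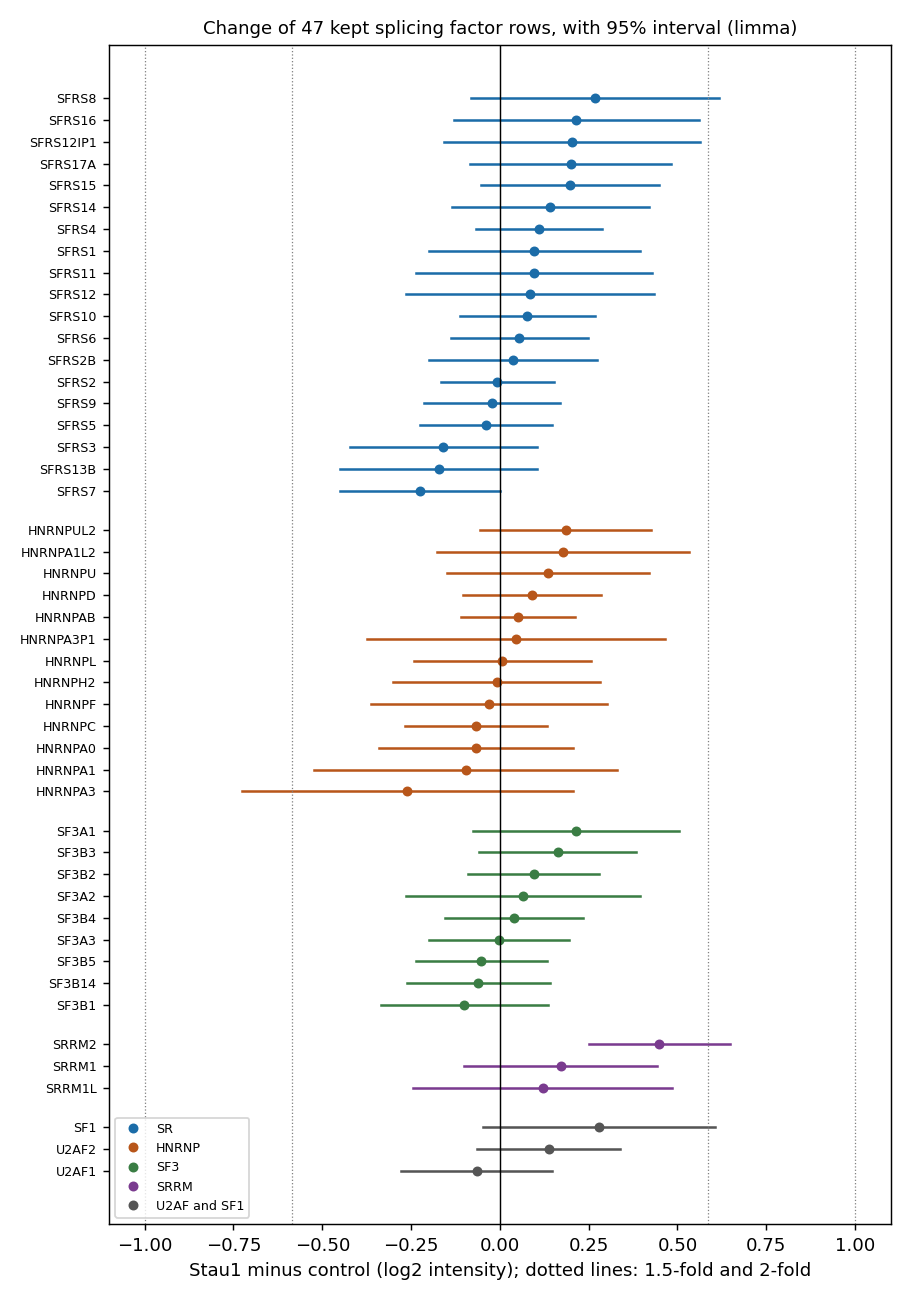
Stau1 minus control on the log2 intensity scale for the 47 kept members (points) with the 95% interval from limma (lines), grouped and coloured by family. SRRM2 is the only member whose interval excludes 0, and no interval reaches 2-fold (outer dotted lines).

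SRRM2 was the member with the largest difference. Its row, on chromosome 16 per the table, measured 11.12, 10.97 and 11.11 on control replicates 1 to 3. On Stau1 replicates 1 to 3 it measured 11.45, 11.52 and 11.57. Every Stau1 array was above every control array, and the distance between the groups was more than the range within either. The difference was 0.45 (SE 0.09, 95% interval 0.25 to 0.65), a fold of 1.37. The unadjusted limma p of 2.9e-04 was the 3rd lowest of the 13285 rows, and it did not survive adjustment (limma adjusted p = 0.999). With median scaling the unadjusted limma p was 0.017, the 69th lowest. Before normalization the groups did overlap: raw intensities were 1778, 1888 and 2830 in control and 2641, 3232 and 3337 in Stau1. The high raw value in control belonged to replicate 3, the array that was bright for the members as a whole.

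The difference of SRRM2 did not rest on 1 array. With each array left out in turn it lay between 0.40 and 0.48, with an unadjusted limma p between 1.4e-04 and 0.0037. Its adjusted p came nearest to the threshold with array weights, at 0.056, and without control replicate 3, at 0.070. An unadjusted limma p under 0.05 was given to 9.72% and 12.8% of all kept rows in these settings, against 3.73% in the reported fit. By unadjusted p SRRM2 ranked 2nd with array weights and 72nd without control replicate 3. In the other settings tried, including the fits without any other array, the limma adjusted p was between 0.732 and 1.000.

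**Figure D2:**
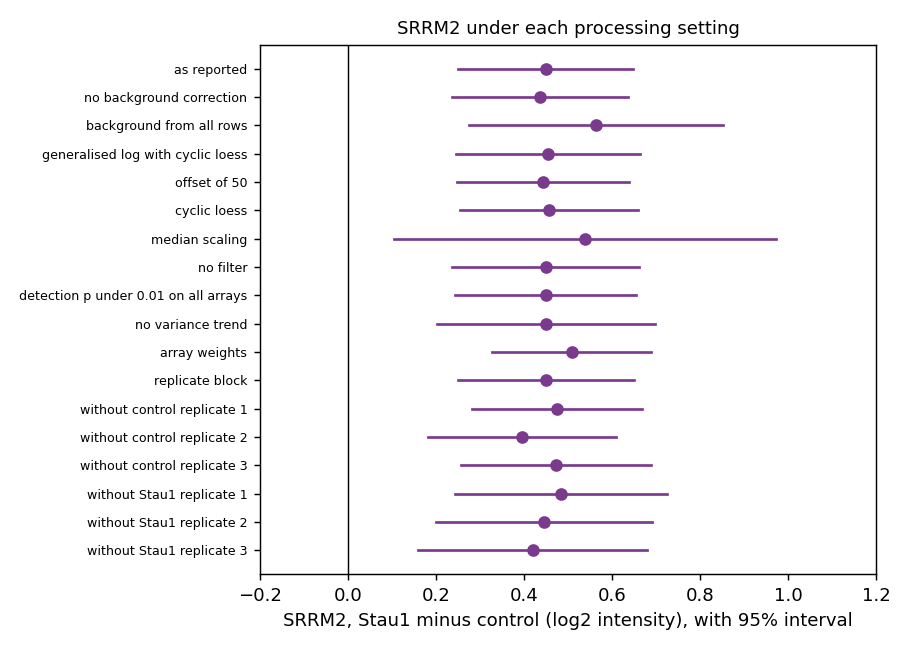
SRRM2, Stau1 minus control on the log2 scale, with its 95% interval (limma) under the reported processing, under each alternative setting and without each array. All points lie between 0.40 and 0.56, and median scaling gives the widest interval.

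The other SRRM rows gave smaller differences. SRRM1, which helps splicing activators reach the spliceosome, measured 10.80, 11.08 and 11.21 in control and 11.04, 11.42 and 11.15 in Stau1. The groups overlapped, since Stau1 replicate 1 lay below control replicates 2 and 3, and the difference was 0.17 (SE 0.13). It was 0.06 without control replicate 1 and also without Stau1 replicate 2. SRRM1L, a pseudogene now named SRRM1P1, measured 8.47, 8.59 and 8.75 in control and 8.32, 8.96 and 8.90 in Stau1. In both rows Stau1 replicate 2 was the highest array, and control replicate 1 and Stau1 replicate 1 were the lowest pair; whether the probes of SRRM1L read SRRM1 was not tested. SRRM4, a splicing regulator of neurons, was detected on 0 of 6 arrays, with raw intensities from 62.3 to 82.7.

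Of the factors that first mark the 3′ splice site, SF1 was separated between groups. SF1 measured 6.87, 6.56 and 6.85 in control and 7.06, 7.02 and 7.04 in Stau1. The Stau1 arrays lay within 0.05 of each other, and the control range was set by replicate 2. The difference was 0.28 (SE 0.15) with an unadjusted limma p of 0.089. It was 0.18 without control replicate 2, 0.17 without a background correction, and 0.03 when all rows served to infer the background. This row was dim, with raw intensities of 152 to 218 against background means of 74.6 to 92.7. It was not kept when a detection p under 0.01 was asked of all 6 arrays. The row may average several probes, so its detection p may be a combined value. U2AF2 measured 11.26, 11.30 and 11.43 in control and 11.56, 11.39 and 11.46 in Stau1, a difference of 0.14 (SE 0.09). Its groups overlapped only because control replicate 3 lay above Stau1 replicate 2. U2AF1 measured 11.42, 11.23 and 11.42 in control and 11.29, 11.19 and 11.40 in Stau1. Its difference of -0.06 (SE 0.10) changed sign with median scaling, to 0.03, and with array weights, to 0.02.

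The SF3 rows varied little over control arrays. All 9 were kept, and their median SD over control arrays was 0.09 against 0.17 over all kept rows. Their 95% intervals all lay within 1.5-fold. The changes ran from -0.10 for SF3B1 to 0.21 for SF3A1, with a median of 0.04, and 5 of 9 were positive. Without control replicate 3 the median was 0.00, and with median scaling it was 0.14.

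Separated groups were seen for 3 of the 9 SF3 rows, all higher in Stau1, against 4.51% of all kept rows higher and 3.4% lower. Their unadjusted limma p-values ran from 0.13 to 0.28. SF3A1 measured 7.896, 7.996 and 7.937 in control and 8.042, 8.256 and 8.173 in Stau1, and the gap between the groups was narrower than the range within either. SF3A1 is the subunit of SF3A that contacts the U1 snRNP and other partners. Its difference was 0.21 (SE 0.13). It was 0.17 without a background correction and 0.06 when all rows served to infer the background. SF3B3, a large scaffold subunit of SF3B, measured 10.79, 11.04 and 11.09 in control and 11.10, 11.12 and 11.19 in Stau1. Control replicate 3 and Stau1 replicate 1 all but met, and control replicate 1 alone stood low. The difference was 0.16 (SE 0.10), and 0.07 without control replicate 1. SF3B2, which binds near the branch site, measured 11.70, 11.59 and 11.65 in control and 11.72, 11.70 and 11.81 in Stau1. Its difference of 0.10 (SE 0.09) was about the size of its error.

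SF3B1, the subunit that holds the branch site helix and is often mutated in blood cancers, measured 9.94, 9.91 and 9.91 in control. It measured 9.70, 9.96 and 9.79 in Stau1. Its control arrays agreed closely, while Stau1 replicate 2 lay above all of them, and the difference was -0.10 (SE 0.11). SF3A2, chosen here after its values were seen, varied most among controls, with 11.26, 10.80 and 10.53. Its Stau1 arrays, at 10.82, 10.92 and 11.05, lay inside that range.

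**Figure D3:**
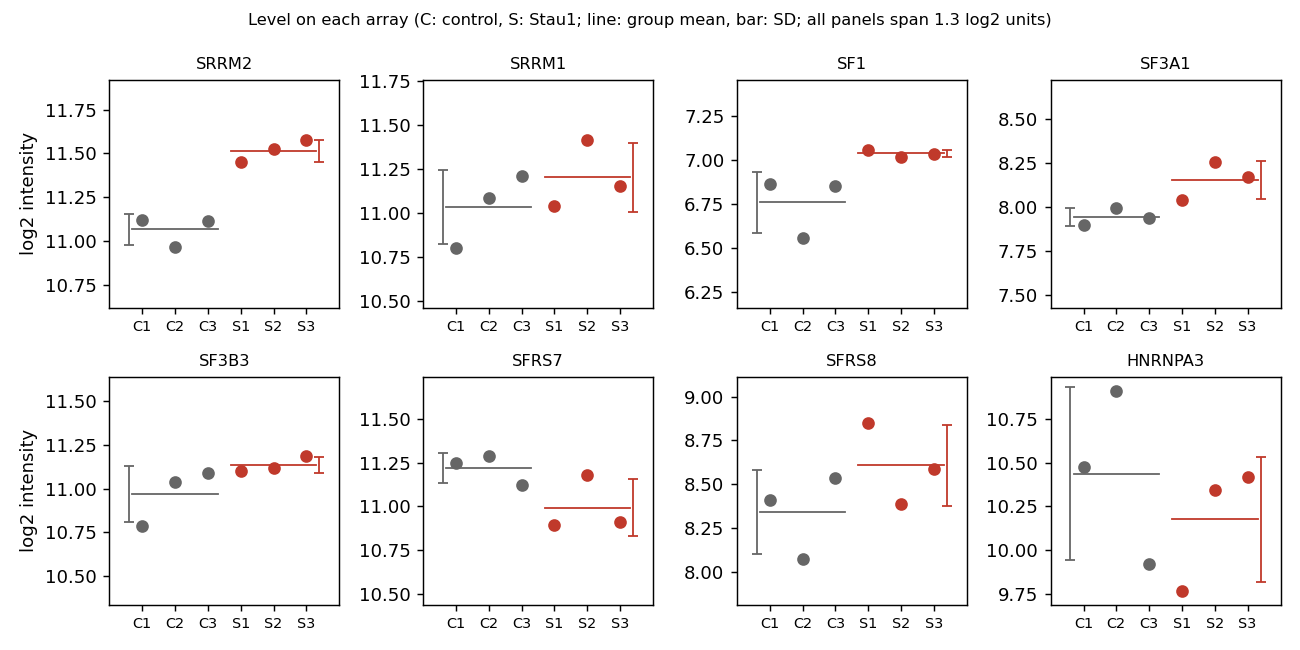
Log2 intensity of 8 members on each array, control replicates 1 to 3 (C1 to C3, grey) and Stau1 replicates 1 to 3 (S1 to S3, red), with the group mean (line) and SD (bar, n = 3). All panels span 1.3 log2 units, so the wide control spread of HNRNPA3 can be read against the tight groups of SRRM2.

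The SR family rows can be read as 2 kinds. Of the 21 rows, 12 are the SR proteins now named SRSF1 to SRSF12, and 9 are RS-rich or SR-related proteins that once carried SFRS symbols. The kept rows of the first kind had a median change of -0.01, with 5 of 11 positive. With median scaling these values were 0.07 and 8 of 11. The kept rows of the second kind had a median of 0.20, and 8 of 8 were positive. That median was 0.14 without a background correction and 0.09 when all rows served to infer the background, again with 8 of 8 positive. The split was made by present names, and no test of the difference between the kinds was run. None of the 19 rows had groups that did not overlap, against 7.91% of all kept rows.

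Among the SRSF proteins, SFRS7 (SRSF7) had the lowest p. It measured 11.25, 11.29 and 11.12 in control and 10.89, 11.18 and 10.91 in Stau1. Stau1 replicates 1 and 3 lay below all controls, and Stau1 replicate 2 lay among them. The difference was -0.23 (SE 0.10), and its unadjusted limma p of 0.0503 fell just short of 0.05. It was under 0.05 without control replicate 3, without Stau1 replicate 2, with array weights and with the replicate block. In each of these fits the adjusted p stayed over 0.05. SRSF7 works with SRSF3 in coupling splicing to 3′ end processing and export. SFRS3 (SRSF3) measured 10.01, 10.32 and 10.05 in control and 9.86, 10.13 and 9.91 in Stau1. The difference was -0.16 (SE 0.12), or -0.06 without control replicate 2. With array weights the unadjusted limma p of SFRS3 was under 0.05, as was that of 9.72% of all kept rows. In both rows Stau1 replicate 2 was the highest of its group and control replicate 2 the highest of all arrays. SFRS3 and the SRSF rows that follow were chosen after their values were seen.

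The most studied SR proteins gave small values. SFRS2 (SRSF2, also called SC35) changed by -0.01 (SE 0.07), with all 6 arrays between 13.61 and 13.73. SFRS1 (SRSF1), the founding member of the family, measured 12.31 on control replicate 1 and between 12.60 and 12.88 on the other 5 arrays. Its difference of 0.10 (SE 0.14) was -0.09 without that low array. SFRS4 (SRSF4) had the highest difference of the SRSF rows, 0.11 (SE 0.08), and SFRS5, SFRS6, SFRS9, SFRS11 and SFRS2B (SRSF8) lay between -0.04 and 0.10. SFRS13B (SRSF12) measured 8.87, 8.85 and 8.61 in control and 8.62, 8.54 and 8.65 in Stau1, a difference of -0.17 (SE 0.13). SFRS13A (SRSF10), which represses splicing when dephosphorylated in mitosis, was detected on 2 of 6 arrays. Its raw intensity was 247 to 371, and its deposited detection p is a combined value over probes, so it was not tested.

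The SR-related rows were low on control replicates 1 and 2. Measured from the mean of each row, their median was -0.21 on control replicate 1 and -0.18 on control replicate 2. It was 0.10 on control replicate 3, and 0.03, 0.12 and 0.15 on Stau1 replicates 1 to 3. The median distance of control replicate 3 from the Stau1 mean was 0.00, as it was over all kept rows. Over all kept rows that array correlated at 0.995 to 0.996 with the Stau1 arrays, at 0.992 with control replicate 2 and at 0.987 with control replicate 1. Control replicate 3 was the highest control for 6 of the 8 rows, against 32.3% of all kept rows. The median change of the 8 rows was 0.25 without control replicate 3, 0.12 without either of the other controls, and 0.16 to 0.19 without one of the Stau1 arrays. The number that were positive was 7 without control replicate 1 or Stau1 replicate 2, and 8 without any other array.

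SFRS8 (SFSWAP), a regulator that controls the splicing of its own transcript, measured 8.41, 8.07 and 8.54 in control and 8.85, 8.39 and 8.59 in Stau1. Its difference was 0.27 (SE 0.16) with all arrays, and between 0.14 (without control replicate 2) and 0.38 (without Stau1 replicate 2) when single arrays were left out. It was 0.15 without Stau1 replicate 1, 0.37 without control replicate 3, and 0.10 with the background inferred from all rows. SFRS17A (AKAP17A), an anchor of protein kinase A at speckles, measured 10.04, 10.01 and 10.50 in control and 10.34, 10.36 and 10.45 in Stau1. Control replicate 3 was the highest of all 6 arrays, and the difference went from 0.20 (SE 0.13) to 0.36 without it. It was 0.13 without control replicate 1 and 0.11 without control replicate 2. SFRS15 (SCAF4), which binds RNA polymerase II and prevents early transcript ends, measured 9.49, 9.55 and 9.68 in control and 9.61, 9.82 and 9.88 in Stau1, a difference of 0.20 (SE 0.12). SFRS16 (CLASRP), a partner of the CLK kinases chosen after its values were seen, had the same shape as SFRS17A, with 7.30, 7.33 and 7.77 in control and 7.65, 7.66 and 7.74 in Stau1. Its difference of 0.22 (SE 0.16) was 0.36 without control replicate 3 and 0.13 without control replicate 1. Of these rows SFRS8, SFRS16 and SFRS17A had an unadjusted limma p under 0.05 without control replicate 3.

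**Figure D4:**
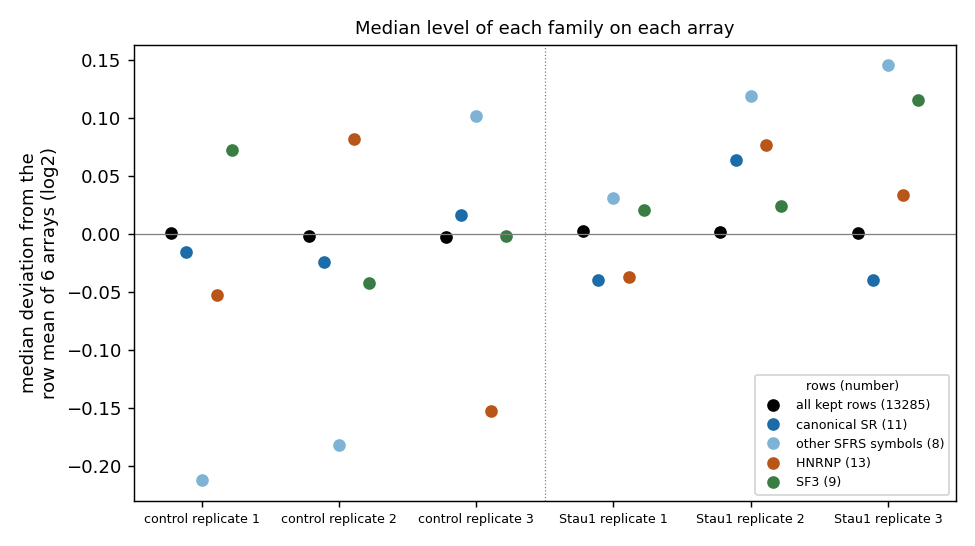
Median deviation of a family's kept rows from each row's mean over the 6 arrays (log2, vertical axis) on each array (horizontal axis), with all kept rows in black. The SR-related rows (other SFRS symbols) are at -0.21 and -0.18 on control replicates 1 and 2 and above 0 on the other 4 arrays, and the HNRNP rows are lowest on control replicate 3.

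Removing control replicate 3 mattered for the whole table. Without it, 39 of the 13285 rows (0.294%) had a limma adjusted p under 0.05, and 0 of these were members. An unadjusted p under 0.05 was then given to 6 members, HNRNPA3, SFRS7, SFRS8, SFRS16, SFRS17A and SRRM2, and to 12.8% of all kept rows. SFRS7 and HNRNPA3 were lower in Stau1, and the other 4 were higher. The share of members, 6 of 47, was close to that of the table. The sign of the change was the same in all 6 fits without 1 array for 29 of the 47 members, 20 higher and 9 lower, and for 49.1% of all kept rows.

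The HNRNP rows centred on 0. Of the 13 kept rows 7 were positive, with a median change of 0.01 (11 and 0.10 with median scaling), and the median lay between -0.04 and 0.08 when single arrays were left out. The SD over control arrays was greater than that over Stau1 arrays in 11 of the 13 rows, against 68.4% of all kept rows. HNRNPUL2, related to the scaffold protein hnRNP U, measured 9.56, 9.70 and 9.46 in control and 9.69, 9.79 and 9.80 in Stau1. Only control replicate 2 and Stau1 replicate 1 overlapped, by 0.01, and the difference was 0.19 (SE 0.11). HNRNPU itself, which binds chromatin-associated RNA, measured 8.707, 8.922 and 9.019 in control and 9.165, 8.997 and 8.897 in Stau1, a difference of 0.14 (SE 0.13), or 0.05 without control replicate 1. The lowest array was a control and the highest a Stau1 array, with the other 4 interleaved.

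Several hnRNP A rows showed a wide spread. HNRNPA3, which binds RNA much as hnRNP A1 does, measured 10.48, 10.91 and 9.92 in control and 9.77, 10.34 and 10.42 in Stau1. Its control SD was 0.49, and its difference of -0.26 (SE 0.22) was the lowest of any member. It was -0.52 without control replicate 3 and -0.02 without control replicate 2. HNRNPA1, a splicing repressor that opposes SRSF1, measured 9.75, 9.39 and 8.94 in control and 8.90, 9.40 and 9.49 in Stau1. Its control range of about 0.8 was far larger than its difference of -0.10 (SE 0.20), which changed sign without control replicate 1 (0.10) and without Stau1 replicate 1 (0.09). HNRNPA1L2, a retrotransposed copy of HNRNPA1, measured 6.55, 6.03 and 6.12 in control and 6.37, 6.40 and 6.46 in Stau1. This row was dim, with raw intensities of 125 to 169, and was detected on 3 of the 6 arrays, 1 control and 2 Stau1. Its difference of 0.18 (SE 0.16) ran from 0.08 without control replicate 2 to 0.34 without control replicate 1. It was 0.09 without a background correction and 0.01 when all rows served to infer the background.

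Other rows of the table that are named for hnRNP A1 by an older symbol followed the same arrays. HNRPA1L-2 measured 12.61, 12.36 and 11.85 in control and 12.04, 12.18 and 12.28 in Stau1. HNRPA1P4 measured 13.02, 12.84 and 12.51 in control and 12.36, 12.87 and 12.89 in Stau1. As in HNRNPA1, control replicate 1 was highest, and control replicate 3 and Stau1 replicate 1 were the lowest of the 6. These rows may share probe targets, so they are not separate measurements of a change, and they were chosen after their values were seen. The member row HNRNPA1L2 was lowest on control replicate 2, and its change was 0.18 against -0.11 for HNRPA1L-2. HNRNPA1L2 was dim and detected on 3 of the 6 arrays, so its values cannot show whether it followed these rows. A second pair of rows for 1 gene, HNRNPC and HNRPC, gave changes of -0.07 (SE 0.09) and -0.05 (SE 0.11).

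**Figure D5:**
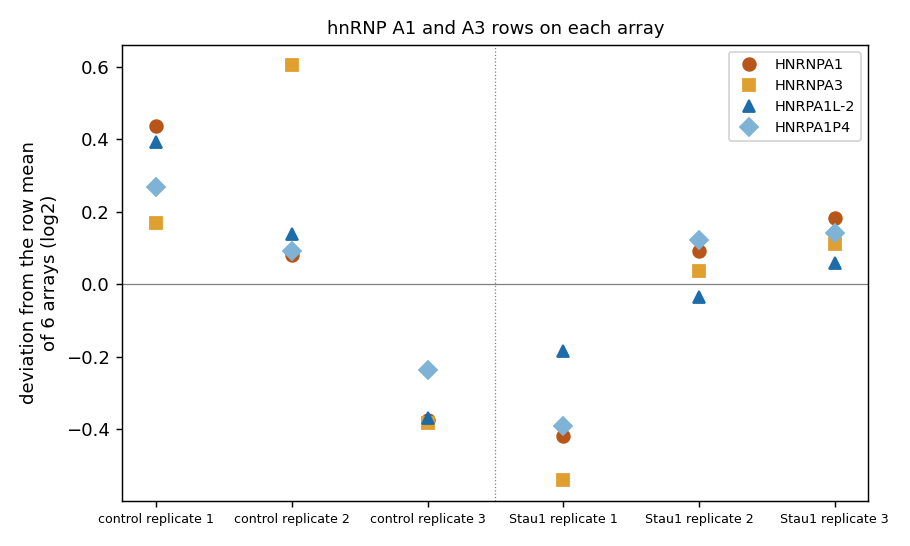
Deviation from the row mean of 6 arrays (log2, vertical axis) for HNRNPA1, HNRNPA3 and 2 rows named for hnRNP A1 by older symbols, on each array (horizontal axis). All 4 rows are below 0 on control replicate 3 and Stau1 replicate 1 and above 0 on control replicates 1 and 2, so their groups overlap.

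The remaining HNRNP members had small changes. HNRNPAB, HNRNPD, HNRNPL, HNRNPH2, HNRNPF, HNRNPC and HNRNPA0 lay between -0.07 and 0.09. HNRNPA3P1, a pseudogene of HNRNPA3, changed by 0.05 (SE 0.19) with a wide control SD of 0.41. HNRNPCL1, an hnRNP C-like gene, was detected on 0 arrays. Of the SR-related rows, SFRS2IP (SCAF11) was detected on 1 array, with raw intensities of 246 to 404, and it was not tested. Like SFRS13A it read well above the background means, and its deposited detection p is a combined value.

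Genes that work with these factors were counted in the same fit, and with all 6 arrays 0 rows of any list had a limma adjusted p under 0.05. The proteins of the spliceosomal snRNPs (34 kept rows) had a median change of 0.02, with 21 positive, and 0 had an unadjusted p under 0.05. The kinases and importer of SR proteins (8 kept) had a median of -0.01, with CLK2 at 0.13 and SRPK2 at -0.15. The partners of the U2 snRNP and the branch site (13 kept) had a median of 0.08, and 12 were positive. Other RNA-binding proteins like hnRNPs (27 kept) had a median of 0.02, with PTBP1, a repressor that binds pyrimidine tracts, at 0.20 (SE 0.10). The rows with the older HNRP symbol (12 kept) had a median of 0.00.

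The list nearest to SRRM2 in kind, RS-rich nuclear proteins outside the SFRS names, had the highest median. Its 30 kept rows had a median change of 0.11, and 23 were positive. An unadjusted limma p under 0.05 was found for 4 of them, all higher in Stau1: SPEN, CDC2L5 (now CDK13), SAFB2 and SON, against 2.41% of all kept rows. That count was 1 with median scaling, where 1.72% of all kept rows had such a p in either direction. It was 2 without control replicate 2 (2.33% of all kept rows) and without Stau1 replicate 3 (1.80%). It was also 2 without the variance trend (4.04%) and with the methods' t-test (3.48%). Without control replicate 3 it was 10, where 12.8% of all kept rows had such a p. SPEN, a transcriptional corepressor, measured 9.63, 9.74 and 9.93 in control and 10.16, 10.43 and 10.48 in Stau1. Its groups did not overlap, and the difference was 0.59 (SE 0.12). SPEN was the 1 row of the list with a limma adjusted p under 0.05 without control replicate 3. SON, a speckle protein and with SRRM2 a core part of that body, measured 9.04, 9.22 and 9.35 in control and 9.38, 9.54 and 9.48 in Stau1, a difference of 0.26 (SE 0.12). SON was chosen after its values were seen. Unlike SRRM2, SON and SPEN were highest among controls on replicate 3, and the median of the list was 0.21 without that array, 0.03 without control replicate 1 and 0.04 without Stau1 replicate 2.

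The study's list of transcripts bound by Stau155-FLAG had 275 names among the 37879 rows of the table, and 0 of the 51 members were among them. So small a share of the table was listed that a count of 0 among 51 rows says little about the members. The bound RNA itself was not analysed here.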

How the data were processed

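The deposited table was a BeadStudio gene profile per the file headers, with no normalization. For each row and array the authors deposited a signal intensity averaged over the probes of 1 gene, with a detection p-value, the standard error over beads and the mean number of beads. Chromosomes are the table's; its genome build is not given in the sources used here. Values were computed with limma 3.58.1 in R 4.3.3: normexp background correction from the detection p-values of the 30932 rows that behave as 1 probe, an offset of 16, quantile normalization and log2. Rows detected at p under 0.05 on at least 3 arrays were kept, which were 13285 of 37879 (35.1%). Groups were compared with lmFit and eBayes (variance trend on), and p-values were adjusted by Benjamini-Hochberg over all kept rows. The code was tested on simulated data. Median bead number was 40 to 41 per array, and the bead standard error of members was 3.61% of intensity at the median. The number of arrays limits the precision.

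The members and gene lists were chosen with earlier results of these data known. The genes named are SRRM, U2AF and SF1 rows, the 4 lowest p-values of each other family, STAU1 and up to 3 lowest p-values per list, and others are marked as chosen after their values were seen. The list of older HNRP symbols was added after the table was seen. Names came from RefSeq (GRCh38.p14), used for names only. Alternatives were the background correction, offset, normalization, filter, variance model, array weights, a replicate block, the methods' t-test and leaving out each array. Probe sequences were not used here.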

Additional observations from a re-analysis of the deposited data

How the results depend on the processing

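The count of 0 members called held under every alternative run. With median scaling the median change was 0.15 over all kept members, 0.16 over SR family rows and 0.14 over SF3 rows, while the median of all rows moved from 0.00 to 0.07. The median of SR family rows was 0.08 with all arrays, 0.032 with array weights and 0.033 to 0.144 when single arrays were left out, lowest without Stau1 replicate 2 and highest without control replicate 3. U2AF1 reversed to 0.028 with median scaling and to 0.024 with array weights. The causes were not tested. The recomputed values were the count of members called, the medians and the changes of the genes named by rule. Of the others among them, 399 kept their direction and side of the threshold or moved by less than the spread between replicates. Such values could still shrink, as SF1 did from 0.28 to 0.03 with the background inferred from all rows. Over all 47 kept members, the sign was the same in every fit without 1 array for 29. Across settings the number of members with an unadjusted p under 0.05 was 1 to 7, with the most under array weights, and SRRM2 was among them in every setting. The share of all tested rows at that p moved as well. It was 3.73% in the reported fit, 1.72% with median scaling, 9.72% with array weights and 12.8% without control replicate 3. The methods' t-test, run two-sided on the same values, called 0 rows after Benjamini-Hochberg adjustment, and its unadjusted p was under 0.05 for SRRM2 and SF3A1.

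Whether replicate numbers pair the arrays cannot be settled with 3 arrays per group. Deviations of same-numbered arrays correlated at 0.02, 0.26 and -0.14, and 2 of the 6 arrays correlated best with their own number. An unadjusted limma p under 0.05 was given to 4.55% of all kept rows with the replicate block, against 3.73% in the reported fit. With the replicate block 0 members were called, the median over all kept members was again 0.07, and SFRS7 joined SRRM2 under an unadjusted p of 0.05. The number of members tested depended on the filter: 44 when a detection p under 0.01 was asked of all arrays, and 51 with no filter. SF1, a row of several or undetermined probes, was dropped by the stricter filter. HNRNPF, a row of 1 probe with raw intensities of 160 to 259, had a detection p of at most 0.0079. Whether the signal of SF1 or the combining of probes set its detection was not tested.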
